A study of Mus musculus with 9 samples.

Results

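Circular RNAs (circRNAs) made from genes for ion channels, neurotransmitter receptors, transporters and neuronal adhesion proteins were taken from 2 deposited tables of HuD immunoprecipitates of mouse striatum. A circRNA belonged to the set if its host gene symbol in either table began with Gria, Grin, Grik, Grm, Gabr, Gabb, Cacn, Kcn, Scn, Hcn, Ryr, Itpr, Atp, Slc, Nrxn, Nlgn, Eph, Cdh, Pcdh or Cntn. The rule found 41 circRNAs of 33 host genes among the 737 circRNAs listed, and the array carried 14330 probes other than controls. The tables had been selected on the HuD RIP values themselves, so every value given here for HuD RIP against a control describes circRNAs chosen by that difference and carries no test. Of the 41 circRNAs, 23 stood in both tables, 13 only in the table against IgG RIP and 5 (those of Atp8a1, Cdh12, Gabrb2 and Scn8a among them) only in the table against WT RIP. No circRNA of a Grin, Grik, Hcn, Ryr or Itpr gene was listed.

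HuD is an RNA-binding protein of neurons, and RNA immunoprecipitation (RIP) recovers the RNAs that come down with it. HuD RIP was done on adult striatum of transgenic mice (HuD-OE) that carried myc-tagged HuD under the Camk2a promoter on a C57BL/6J background, with the anti-myc tag antibody 9B11. WT RIP used the same antibody on wild-type tissue, which has no tagged protein. IgG RIP used HuD-OE tissue and, by the study's methods, non-immune IgG, although its label names the same anti-myc antibody. The Camk2a promoter limits the transgene to neurons that use it, each group had 3 arrays, each precipitation pooled the tissue of 3 mice, and neither the sex nor a more exact age is in the labels. The RNA was digested with RNase R, which removes linear RNA, and hybridised to 1-colour arrays. A measured level is the amount that came down in a precipitation, so more of a circRNA in the tissue and more of it bound to HuD cannot be told apart. The same holds for a difference from WT RIP, whose tissue was of another genotype. IgG RIP shared the HuD-OE genotype with HuD RIP.

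A circRNA arises when a splice donor is joined to an acceptor upstream of it, which closes 1 or more exons into a ring without free ends. Such rings are plentiful in brain, and many come from genes of the synapse. In striatal projection neurons, AMPA-type and metabotropic glutamate receptors receive the cortical input, GABA receptors carry the inhibition between neighbouring cells, and voltage-gated calcium, potassium and sodium channels shape firing. Pumps and exchangers then restore the ion gradients, and neurexins, neuroligins, cadherins and contactins hold synapses and axons together. Hu proteins are known to bind U-rich and AU-rich stretches of RNA.

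Each probe reads 60 bases across the joined ends, listed in the tables in DNA letters, and the joined ends tell a ring from the linear mRNA of its gene. Junctions of 6 receptor circRNAs are shown because the receptor results turn on them, those of Atp2a2 because its rings can be told apart only there, and that of Atp1b1 because, of the circRNAs detected on all 9 arrays, it differed most from each control. Capitals mark ATTTA, an AU-rich pentamer, in Gria2, and the run of bases that 2 of the Atp2a2 junctions share.
Gria2 mmu_circRNA_35637: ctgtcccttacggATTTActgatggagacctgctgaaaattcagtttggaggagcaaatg
Gria2 mmu_circRNA_35640: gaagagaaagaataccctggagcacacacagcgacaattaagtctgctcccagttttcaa
Grm5 mmu_circRNA_41820: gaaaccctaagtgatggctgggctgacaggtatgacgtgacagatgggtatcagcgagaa
Gabbr1 mmu_circRNA_30495: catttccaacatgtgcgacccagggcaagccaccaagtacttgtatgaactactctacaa
Gabrb2 mmu_circRNA_23245: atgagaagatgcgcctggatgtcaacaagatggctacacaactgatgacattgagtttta
Gabrb2 mmu_circRNA_23246: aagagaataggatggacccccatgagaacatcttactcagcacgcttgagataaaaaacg
Atp1b1 mmu_circRNA_21193: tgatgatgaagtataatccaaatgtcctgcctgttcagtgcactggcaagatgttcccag
Atp2a2 mmu_circRNA_39312: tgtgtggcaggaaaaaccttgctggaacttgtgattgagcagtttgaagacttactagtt
Atp2a2 mmu_circRNA_39310: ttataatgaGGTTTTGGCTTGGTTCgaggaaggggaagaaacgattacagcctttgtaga
Atp2a2 mmu_circRNA_19383: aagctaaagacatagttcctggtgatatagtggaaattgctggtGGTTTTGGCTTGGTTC

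The tables class 37 of the 41 circRNAs as exonic and 4 (mmu_circRNA_19383 of Atp2a2, mmu_circRNA_23246 of Gabrb2, mmu_circRNA_35637 of Gria2 and the Slc6a11 circRNA) as sense overlapping. The distance on the genome between the 2 ends of a ring had a median of 18.99 kb, and the other 696 listed circRNAs had a median of 10.3 kb. In 15 of 41 (36.6%) the ends lay 30 kb or more apart, and in the other listed circRNAs this share was 19.5%. These spans include introns and are not the length of the ring.

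**Figure D1:**
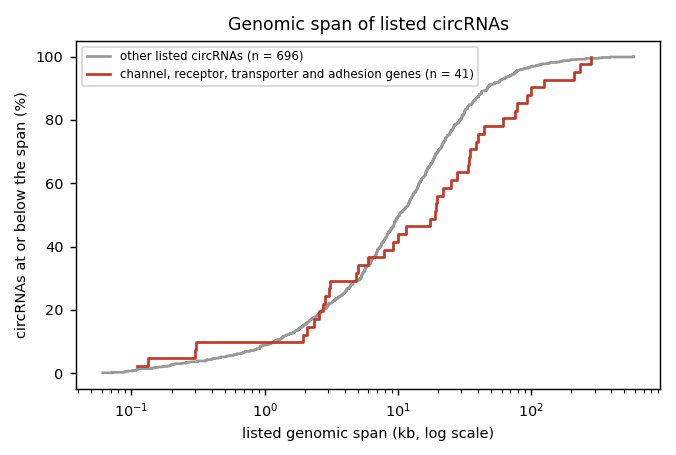
Cumulative share of circRNAs (percent, vertical axis) against the listed genomic span (kb, log scale) for the 41 circRNAs (red) and the other 696 listed circRNAs (grey). In its upper part the red line lies to the right of the grey one, with medians of 18.99 kb and 10.3 kb.

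Few junctions held the letters that Hu proteins are known for. ATTTA, searched on the strand given, occurred in 3 of 41 junctions (7.32%; Gria2 mmu_circRNA_35637, Atp6v1h mmu_circRNA_19574 and Epha7), and in 5.29% of all 737. TTTTT occurred in 1, that of Slc6a11 (2.44%), and in 3.66% of all 737. The median T content was 25% in the set and 23.3% in the other listed circRNAs, with a range of 8.33% to 40.0% in the set. The rest of each ring was not read. The tables name 5 predicted miRNAs for each circRNA, and no miRNA was named for more than 3 of the 41.

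The 3 HuD RIP arrays were brighter than the controls and also differed among themselves. Between 43.7% and 73.9% of probes were well above background on HuD RIP arrays, 25.4% to 44.6% on WT RIP arrays and 21.7% to 26.3% on IgG RIP arrays. Array values are log2 processed signals minus the 75th percentile, on that array, of the 2594 probes that every one of the 9 arrays detected well above background, and 0 is that percentile. All probes of the set had a single spot, so levels of different circRNAs are not compared. The correlation between replicates across probes lay between 0.631 and 0.867 for HuD RIP, 0.814 and 0.898 for WT RIP, and 0.936 and 0.946 for IgG RIP. Of 12 host genes of striatal projection neurons, Arpp21 and Foxp1 had listed circRNAs, of 5 astrocyte genes Slc1a2 and Slc6a11 had, and of 4 oligodendrocyte and 3 microglial genes none had. These circRNAs were listed for their HuD RIP values and most probes carry no gene name, so the tissue could not be checked.

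On HuD RIP arrays 1, 2 and 3, 41, 40 and 41 of the circRNAs were well above background. On WT RIP arrays this number was 36, 11 and 16, and on IgG RIP arrays 13, 9 and 8. WT RIP replicate 1 thus stood apart from the other WT RIP arrays. Taken over the set, HuD RIP replicates 1, 2 and 3 had median values of -0.07, -1.85 and -0.40, WT RIP replicates -2.40, -4.39 and -3.80, and IgG RIP replicates -3.62, -3.77 and -3.68. HuD RIP replicate 2, the dimmest array of its group, was the lowest HuD RIP array for 40 of the 41 circRNAs, and WT RIP replicate 1 was the highest WT RIP array for 37. The part that brightness plays in these values was not tested.

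**Figure D2:**
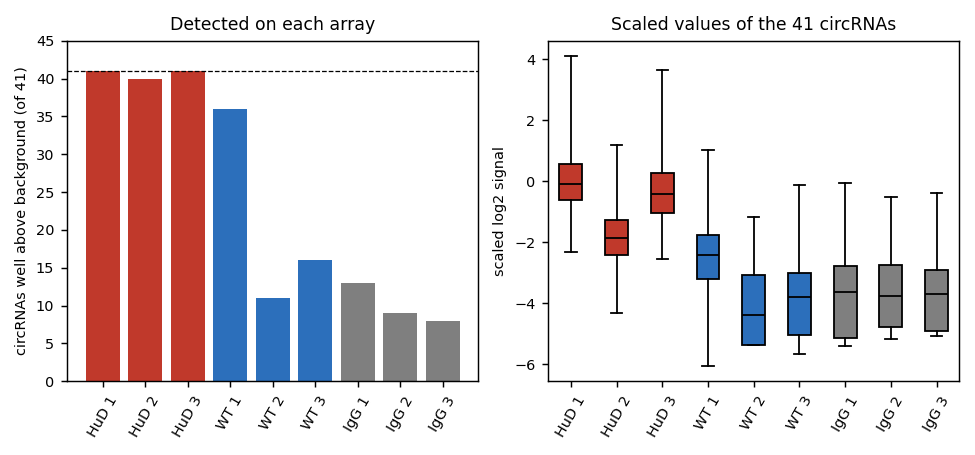
Left, number of the 41 circRNAs well above background on each array (bars; dashed line, 41). Right, their scaled log2 values on each array (box, quartiles with the median; whiskers, lowest and highest). HuD RIP arrays hold 40 or 41, and WT RIP replicate 1 holds 36 where the other WT RIP arrays hold 11 and 16.

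All 41 circRNAs had a higher mean in HuD RIP than in either control. The median measured difference was 2.83 on the log2 scale against WT RIP (range 1.36 to 4.70) and 2.96 against IgG RIP (1.52 to 4.86). Over all 6871 probes tested the medians were 0.35 and 0.52, and over the other 696 listed circRNAs, chosen in the same way, 2.87 and 2.99. With limma over all probes at an adjusted p under 0.05, 28 of the 41 were called above WT RIP (15% of all probes tested were), 36 above IgG RIP (22%) and 27 above both (13.3%). Every HuD RIP array lay above every control array for 31 (19.5%). Nothing is read from these shares, since the tables were chosen on the same values. Each of the 41 lay above every IgG RIP array on all 3 HuD RIP arrays, and all 10 that overlapped a control did so with WT RIP. The matching shares over all probes tested were not computed for each control alone, so nothing is read from these counts either.

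The share of probes called depends on the scale. With the percentile taken over all probes, the contrast with WT RIP called 850 probes up and 754 down in place of 1033 and 34, and that with IgG RIP 974 up and 1477 down in place of 1509 and 363. The median of all tested probes then moved to -0.36 and -0.29, and the set's medians to 2.12 and 2.15. Arrays lay in rows of the slide, and within the row that held HuD RIP replicate 1 and the WT RIP arrays the set's median difference was 3.44. Within the row that held the other HuD RIP arrays and IgG RIP replicates 1 and 2 it was 2.64. With normexp background correction the medians shrank to 0.52 and 0.31.

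**Figure D3:**
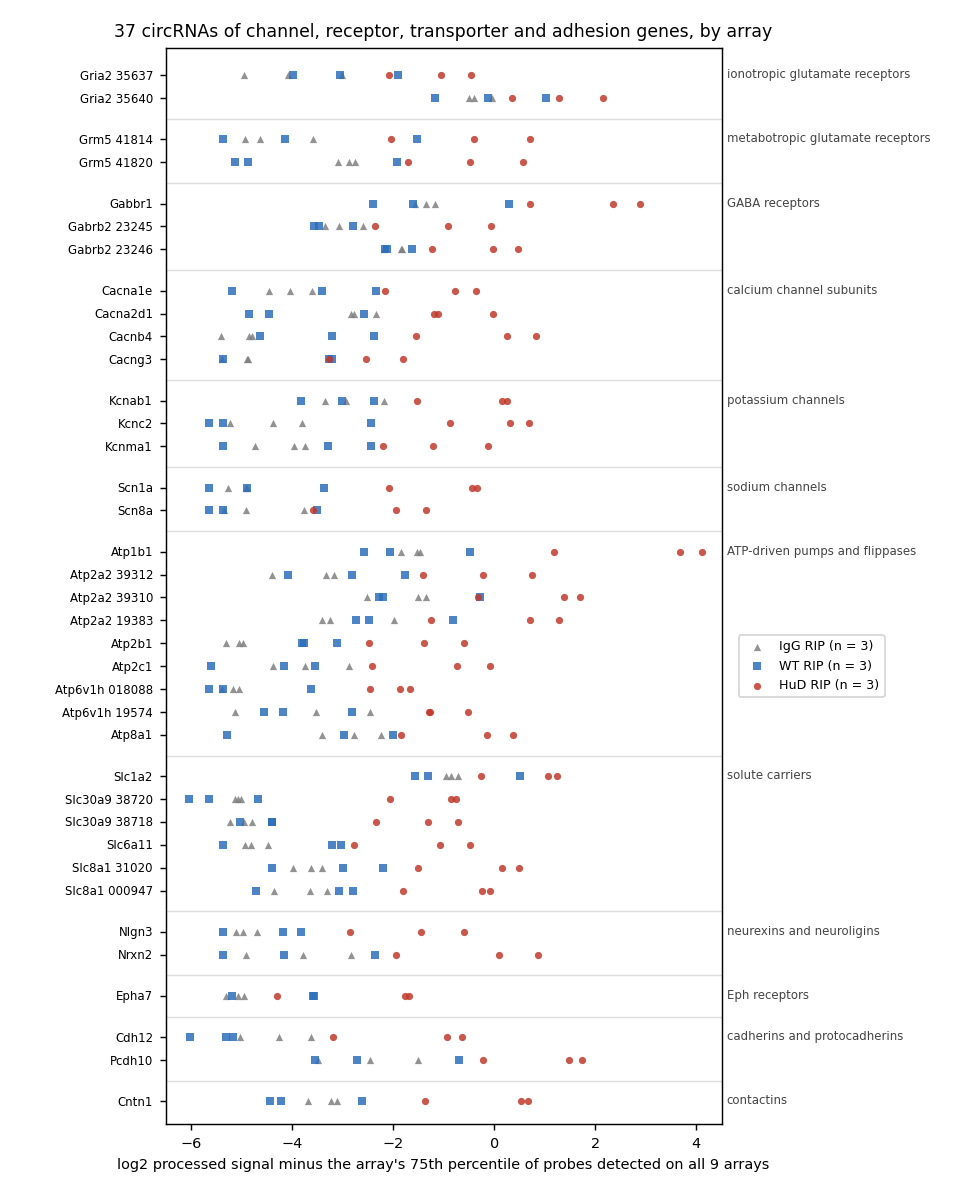
Scaled log2 value (horizontal axis) of each of 37 circRNAs described one by one on each of 9 arrays, grouped by the role of the host gene (red circles, HuD RIP; blue squares, WT RIP; grey triangles, IgG RIP; 3 arrays each; numbers after a gene are the circRNA number). In every line of the plot the red circles lie right of the grey triangles, and for 9 circRNAs a red circle lies at or left of a blue square.

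No IgG RIP array detected 25 of the circRNAs well above background, and no WT RIP array detected 5 (both of Slc30a9 and those of Nlgn3 and Cdh12 among them). For such a group only a lower bound on the fold can be had. It sets the HuD RIP mean against the control mean, with each control array raised to its lowest value well above background where the probe lay under that, and is written "at least". Such a bound holds only for the processed signals on the main scale, and with normexp some of these differences from IgG RIP fell below 0. The control values given below for these groups are the measured ones, not well above background, and 18 of the 369 values were the lowest of their array and have no order among themselves. Only 8 of the circRNAs were well above background on all 3 WT RIP arrays and 6 on all 3 IgG RIP arrays. A further 28 were so on 1 or 2 WT RIP arrays and 10 on 1 or 2 IgG RIP arrays, and their differences also use measured values that were not well above background, which have no firm size. Differences below are log2 differences of measured group means ± SE from the limma fit, with 3 arrays a group.

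Among the glutamate receptors, 4 circRNAs were listed, 2 of Gria2 and 2 of Grm5, all only in the table against IgG RIP. Gria2 encodes the AMPA receptor subunit that keeps the channel closed to calcium, and Grm5 a metabotropic receptor that acts through Gq. The Gria2 circRNA mmu_circRNA_35640 (chr3:80722031-80741198, minus strand, as listed; the tables name no build) was at 2.16, 0.35 and 1.29 in HuD RIP, 1.03, -1.18 and -0.12 in WT RIP and -0.05, -0.51 and -0.39 in IgG RIP. It was well above background on all 9 arrays, and WT RIP replicate 1 lay above HuD RIP replicate 2. Its difference from WT RIP, 1.36 ± 0.60, was the smallest measured in the set, and that from IgG RIP was 1.58 ± 0.60. The junction with ATTTA, mmu_circRNA_35637 (chr3:80688597-80722193), was at -0.46, -2.09 and -1.04 in HuD RIP, -1.90, -3.06 and -3.97 in WT RIP and -4.09, -3.02 and -4.96 in IgG RIP. Again WT RIP replicate 1 reached above HuD RIP replicate 2. The difference from WT RIP was 1.78 ± 0.68, and HuD RIP exceeded IgG RIP at least 3.40-fold. The listed spans of these Gria2 circRNAs overlap by 162 bases, but their junctions share no run of more than 6 bases.

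The Grm5 circRNAs were well above background on every HuD RIP array, on 1 of 3 WT RIP arrays and on no IgG RIP array. One, mmu_circRNA_41820 (chr7:87975134-88075130, plus strand), was at 0.58, -1.70 and -0.47 in HuD RIP, -1.93, -5.13 and -4.88 in WT RIP and -3.09, -2.75 and -2.87 in IgG RIP. All HuD RIP arrays lay above all controls, though HuD RIP replicate 2 and WT RIP replicate 1 were close. The other, mmu_circRNA_41814 (chr7:87596115-87804064), was at 0.70, -2.03 and -0.40 in HuD RIP, -1.53, -5.37 and -4.15 in WT RIP and -4.64, -4.94 and -3.59 in IgG RIP. Here WT RIP replicate 1 lay above HuD RIP replicate 2. Against WT RIP the differences were 3.45 ± 0.86 and 3.11 ± 1.0, and against IgG RIP they were at least 5.16-fold and at least 5.22-fold. Their spans do not overlap.

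The 3 circRNAs of Gabbr1 and Gabrb2 described here had every HuD RIP array above every control array. Gabbr1 encodes the ligand-binding subunit of the GABA-B receptor, and Gabrb2 a beta subunit of the GABA-A chloride channel. The Gabbr1 circRNA (mmu_circRNA_30495, chr17:37054130-37056979, plus strand) was at 2.89, 0.70 and 2.34 in HuD RIP, 0.29, -2.40 and -1.61 in WT RIP and -1.17, -1.56 and -1.36 in IgG RIP. With detection on all 9 arrays its folds need no bound, and it was 9.29-fold (3.22 ± 0.74) above WT RIP and 10.1-fold (3.34 ± 0.74) above IgG RIP.

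The Gabrb2 circRNAs differed less from the controls. One, mmu_circRNA_23246 (chr11:42626543-42628473, plus strand, sense overlapping), was at 0.47, -1.24 and -0.02 in HuD RIP, -1.63, -2.12 and -2.16 in WT RIP and -1.83, -2.18 and -1.84 in IgG RIP. It was seen on all 9 arrays and its differences were nearly equal, 1.70 ± 0.43 and 1.69 ± 0.43. The other, mmu_circRNA_23245 (chr11:42591857-42597785), was at -0.06, -2.36 and -0.92 in HuD RIP, -2.80, -3.46 and -3.57 in WT RIP and -3.35, -3.07 and -2.59 in IgG RIP. It stood only in the table against WT RIP, from which it differed by 2.16 ± 0.55, beside 1.89 ± 0.55 from IgG RIP.

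The 4 genes of voltage-gated calcium channels gave 1 circRNA each: the pore-forming R-type Cacna1e, and the auxiliary subunits Cacna2d1, Cacnb4 and Cacng3, of which Cacng3 also serves AMPA receptors. The Cacnb4 circRNA (mmu_circRNA_33561) was at 0.83, -1.55 and 0.26 in HuD RIP, -2.39, -3.20 and -4.63 in WT RIP and -5.41, -4.79 and -4.84 in IgG RIP. HuD RIP overlapped neither control, and 1 WT RIP array and no IgG RIP array detected the circRNA. It was at least 7.01-fold above IgG RIP. The Cacng3 circRNA was at -1.80, -3.26 and -2.54 in HuD RIP, -3.20, -5.37 and -3.26 in WT RIP and -5.39, -4.88 and -4.87 in IgG RIP. Its HuD RIP replicate 2 fell just below WT RIP replicates 1 and 3, its difference from WT RIP was 1.41 ± 0.61, and its bound against IgG RIP was only 1.34-fold. Cacna2d1, detected on 1 array of each control, had measured differences of 3.18 ± 0.59 from WT RIP and 1.86 ± 0.59 from IgG RIP. These have no firm size, so the controls are not ranked by them. Cacna1e, detected on 1 WT RIP array, had a measured difference of 2.55 ± 0.72 from WT RIP.

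Potassium channel circRNAs came from Kcnc2, a fast-closing Kv3 channel, the beta subunit gene Kcnab1 and the calcium-activated BK channel gene Kcnma1, and all 3 were listed in both tables without overlap between HuD RIP and control arrays. The Kcnc2 circRNA (mmu_circRNA_22632) was at 0.32, -0.87 and 0.70 in HuD RIP, -2.43, -5.37 and -5.64 in WT RIP and -5.24, -4.37 and -3.81 in IgG RIP. A single WT RIP array detected it and the other values there were the lowest of their arrays, so no fold against WT RIP is given, and HuD RIP was at least 8.05-fold above IgG RIP. Kcnab1 differed by 2.69 ± 0.58 and 2.44 ± 0.58 from WT RIP and IgG RIP, and Kcnma1 by 2.52 ± 0.77 from WT RIP.

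Of the sodium channels, Scn1a and Scn8a (the alpha subunits of Nav1.1 and Nav1.6) gave 1 circRNA each. The Scn1a circRNA (mmu_circRNA_33721) was at -0.45, -2.09 and -0.34 in HuD RIP, -3.37, -4.88 and -5.64 in WT RIP and -5.26, -4.90 and -4.89 in IgG RIP. HuD RIP overlapped neither control and was at least 4.01-fold above IgG RIP. A single WT RIP array detected the circRNA, so no fold against WT RIP is given. For Scn8a, HuD RIP replicate 2 at -3.58 lay just below WT RIP replicate 1 at -3.51. That was the only WT RIP array to detect it, and the other WT RIP values were the lowest of their arrays, so no difference is given.

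Genes with the prefix Atp gave 11 circRNAs of 8 genes, the most of any group here, and they are not all ion pumps. Atp1b1 is the non-catalytic subunit of the sodium-potassium pump, Atp2a2 is the calcium pump of the endoplasmic reticulum, Atp2b1 that of the plasma membrane and Atp2c1 that of the Golgi. Atp6v1h is a subunit of the proton pump of vesicles, and Atp8a1 is a flippase that moves phospholipids. The Atp1b1 circRNA (mmu_circRNA_21193, chr1:164439298-164441641, minus strand) was at 4.11, 1.19 and 3.67 in HuD RIP, -0.49, -2.58 and -2.05 in WT RIP and -1.53, -1.48 and -1.84 in IgG RIP. It was detected on all 9 arrays, HuD RIP overlapped neither control, and it was 26-fold (4.70 ± 0.78) above WT RIP and 24.3-fold (4.61 ± 0.78) above IgG RIP.

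Atp2a2 had 3 circRNAs, all listed only against IgG RIP. The longest span, mmu_circRNA_39310 (chr5:122466827-122491785, minus strand), was at 1.70, -0.32 and 1.39 in HuD RIP, -0.28, -2.21 and -2.27 in WT RIP and -1.35, -1.51 and -2.52 in IgG RIP. Sharing its upstream end and 16 bases of junction sequence, mmu_circRNA_19383 (chr5:122489235-122491786) was at 1.28, -1.26 and 0.71 in HuD RIP, -0.81, -2.73 and -2.48 in WT RIP and -1.98, -3.40 and -3.26 in IgG RIP. In both, WT RIP replicate 1 lay above HuD RIP replicate 2. Their differences were 2.51 ± 0.69 and 2.25 ± 0.76 against WT RIP, and 2.71 ± 0.69 and 3.13 ± 0.76 against IgG RIP. Because the junctions share bases, RNA of one may add to the signal of the other, which was not tested. The third, mmu_circRNA_39312 (chr5:122491680-122500813), had no long run in common with them and was at -0.22, -1.41 and 0.75 in HuD RIP, -1.77, -4.08 and -2.81 in WT RIP and -3.33, -4.39 and -3.18 in IgG RIP. Here HuD RIP overlapped neither control, with 2.60 ± 0.70 against WT RIP and at least 6.36-fold against IgG RIP.

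The 2 Atp6v1h circRNAs did not overlap their controls. The circRNA with ATTTA in its junction, mmu_circRNA_19574, was at -1.29, -1.26 and -0.53 in HuD RIP, -2.81, -4.19 and -4.55 in WT RIP and -5.13, -2.46 and -3.53 in IgG RIP. For mmu_circRNA_018088 the values were -1.86, -2.46 and -1.66 in HuD RIP, -3.62, -5.37 and -5.64 in WT RIP and -5.38, -5.16 and -5.05 in IgG RIP. Each was detected on 1 WT RIP array, and mmu_circRNA_19574 also on 1 IgG RIP array. The measured differences of mmu_circRNA_19574 were 2.82 ± 0.69 from WT RIP and 2.68 ± 0.69 from IgG RIP. For mmu_circRNA_018088 the other WT RIP values were the lowest of their arrays, so no difference from WT RIP is given. Against IgG RIP mmu_circRNA_018088 was at least 1.95-fold higher. Of the other Atp genes, Atp2c1 was 3.37 ± 0.73, Atp8a1 2.89 ± 0.86 and Atp2b1 2.07 ± 0.46 above WT RIP in measured means. They were detected on 1, 2 and 1 WT RIP arrays.

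Solute carrier genes gave 6 circRNAs of 4 genes: Slc1a2, the main glutamate transporter of astrocytes, Slc6a11, a GABA transporter of astrocytes, Slc8a1, a sodium-calcium exchanger, and Slc30a9, named for the zinc transporter family. Slc1a2 had the smallest measured difference from IgG RIP in the set. Its circRNA (mmu_circRNA_34116) was at 1.25, -0.27 and 1.06 in HuD RIP, 0.50, -1.57 and -1.31 in WT RIP and -0.71, -0.96 and -0.86 in IgG RIP. It was detected on all 9 arrays, WT RIP replicate 1 lay above HuD RIP replicate 2, and it was 2.77-fold above WT RIP and 2.87-fold above IgG RIP. Slc6a11, the other gene of astrocytes, was detected on 2 of 3 WT RIP arrays and was at least 2.86-fold above IgG RIP.

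Both Slc30a9 circRNAs were well above background on no control array. The values of mmu_circRNA_38720 were -0.75, -2.05 and -0.86 in HuD RIP, -6.04, -4.67 and -5.64 in WT RIP and -5.13, -5.07 and -5.02 in IgG RIP. Those of mmu_circRNA_38718 were -1.30, -2.33 and -0.72 in HuD RIP, -4.39, -4.39 and -5.04 in WT RIP and -5.23, -4.79 and -4.95 in IgG RIP. HuD RIP lay clear of both controls in each. The folds were at least 5.29 and 4.51 against WT RIP, and at least 3.34 and 2.85 against IgG RIP.

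For Slc8a1, mmu_circRNA_31020 was at 0.49, -1.51 and 0.16 in HuD RIP, -2.20, -4.40 and -3.00 in WT RIP and -3.62, -3.42 and -3.99 in IgG RIP. Close to this, mmu_circRNA_000947 was at -0.09, -1.79 and -0.24 in HuD RIP, -3.07, -4.71 and -2.80 in WT RIP and -3.31, -4.35 and -3.64 in IgG RIP. HuD RIP overlapped neither control in either circRNA. The differences from WT RIP were 2.91 ± 0.65 and 2.82 ± 0.62, and the bounds against IgG RIP 6.37-fold and 4.77-fold. Their listed spans overlap by 4593 bases, but their junctions share no run of more than 6 bases.

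**Figure D4:**
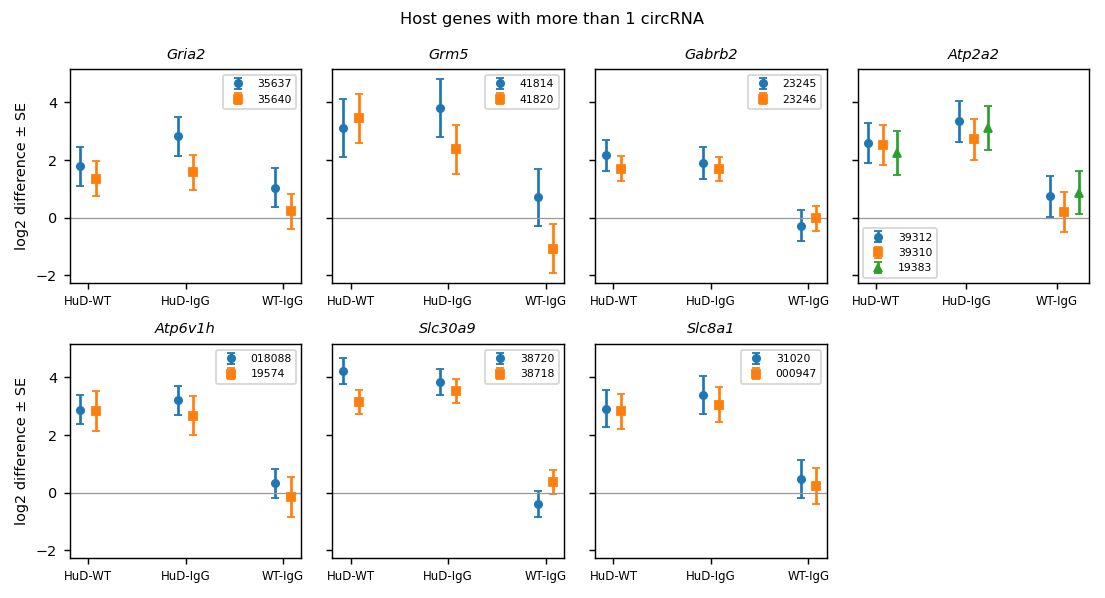
Log2 differences of group means ± SE (vertical axis) of HuD RIP against WT RIP, HuD RIP against IgG RIP and WT RIP against IgG RIP for the 7 host genes with more than 1 circRNA (numbers, circRNA numbers; 3 arrays a group). Measured values are used also where a control was not well above background, so points on such controls have no firm size. For all 15 circRNAs both HuD RIP differences lie above 0.

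Adhesion and guidance genes gave 7 circRNAs. Nrxn2 is a presynaptic neurexin and Nlgn3 a postsynaptic partner of neurexins. The Nrxn2 circRNA (mmu_circRNA_005661) was at 0.88, -1.94 and 0.09 in HuD RIP, -2.35, -5.37 and -4.16 in WT RIP and -2.84, -3.78 and -4.91 in IgG RIP. HuD RIP overlapped neither control, and only 1 array of each control detected the circRNA, so no fold is given. Nlgn3 was at least 3.84-fold above WT RIP.

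The protocadherin circRNA of Pcdh10 (mmu_circRNA_35333) was at 1.74, -0.22 and 1.47 in HuD RIP, -0.71, -2.71 and -3.55 in WT RIP and -1.51, -3.49 and -2.46 in IgG RIP. It was detected on 2 arrays of each control, and its measured means stood 9.98-fold above WT RIP and 11.2-fold above IgG RIP. The circRNA of Cntn1 (mmu_circRNA_28977), a contactin of axons and synapses, was at 0.54, -1.37 and 0.66 in HuD RIP, -2.62, -4.21 and -4.44 in WT RIP and -3.12, -3.23 and -3.68 in IgG RIP. Neither overlapped a control, and Cntn1, detected on 1 WT RIP array, was at least 7.45-fold above IgG RIP. The cadherin circRNA of Cdh12 was at least 4.10-fold above WT RIP. Epha7, an ephrin receptor of axon guidance, was the only circRNA missed on a HuD RIP array (replicate 2, at -4.30), and that value lay below WT RIP replicates 1 and 2, with a difference of 1.53 ± 0.72.

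**Figure D5:**
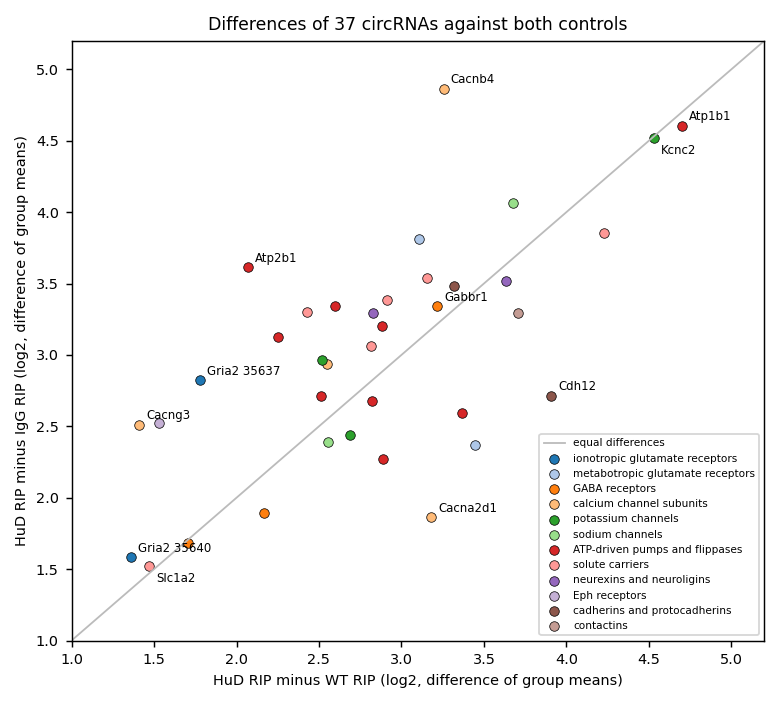
Difference of HuD RIP from IgG RIP (log2, vertical axis) against its difference from WT RIP (log2, horizontal axis) for 37 of the 41 circRNAs, coloured by role, with the line of equal differences. Both axes use the same HuD RIP arrays and the measured control values, also those not well above background. Atp1b1 and Kcnc2 lie at the upper right, and Gria2 mmu_circRNA_35640 and Slc1a2 at the lower left.

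The rule itself sets no size of difference. Among its circRNAs in the table against WT RIP the smallest measured difference from WT RIP was that of Gabrb2 mmu_circRNA_23246 (1.70), and in the table against IgG RIP the smallest from IgG RIP were those of Slc1a2 (1.52), Gria2 mmu_circRNA_35640 (1.58) and Gabrb2 mmu_circRNA_23246 (1.69). Probes that no table lists carry no gene name, so unlisted circRNAs of these genes were not analysed here.

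WT RIP and IgG RIP are both controls, and comparing them shows how far the set differed between controls. The arrays also took part in the choice of the set, so it is not an independent comparison. With limma at an adjusted p under 0.05, 0 of 41 differed, beside 0.0146% of all probes tested, and at an unadjusted p under 0.05 there were 2, beside 6.51%. The methods' t-test also gave 0 after adjustment, beside 0 of all 6871 probes tested. At an unadjusted p under 0.05 it gave 2 of 41, beside 701 of the 6871. The set's median difference, WT RIP minus IgG RIP, was 0.21, with 0.06 over all probes tested, and 24 of 41 means were higher in WT RIP. The 2 were Atp2b1 (1.55 ± 0.46, adjusted p 0.564 with limma) and Cacnb4 (1.61 ± 0.70, adjusted p 0.762 with limma), both well above background on 1 WT RIP array and no IgG RIP array. Every WT RIP array lay above every IgG RIP array in 3 of the 41, these 2 among them. Every one lay below in 2, Cdh12 among them, and no control array detected the Cdh12 circRNA well above background. The shares over all probes tested were not computed, so nothing is read from these orders. Without WT RIP replicate 1 the set's median turned to -0.33, with normexp to -0.20 and with the row of the slide as a block to -0.93, so its direction was not stable. All WT RIP arrays lay in row 1 and all IgG RIP arrays in row 2, with IgG RIP replicate 3 on another slide. Row and control therefore cannot be told apart from these arrays alone.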

How the data were processed

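The members and the lists used here were chosen with earlier results of these data known. For each array the authors deposited the scanner output of Agilent Feature Extraction 11.0.1.1, whose intensity values, the processed signals, are per the file headers already corrected for background. They also deposited 2 tables of listed circRNAs with log2 values normalized by their array service (the submitters' notes name limma; the method of normalization is not given in the sources used here), used here as an alternative. The tables also hold pooled values and the authors' fold changes, p-values and FDR, which were not used. The study's threshold was 1.5-fold and an unadjusted p under 0.05. By a figure legend of the study each precipitation pooled 3 mice, and the tissue was assayed in 3 separate RIPs. Whether these used different pools is not stated, so p-values measure the spread between precipitations.

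Control spots and 269 spot values marked as outliers were left out, spots of a probe were averaged, and processed signals were put on the log2 scale and scaled as described in the report, since the median array had 31.7% of probes well above background. Probes well above background on 3 or more of 9 arrays (6871) were fitted with limma 3.58.1 in R 4.3.3 by group, with Benjamini-Hochberg adjustment over all of them. All 41 circRNAs passed this filter, which a probe bright only in HuD RIP passes through that group. The fit was tested on simulated data. The number of arrays limits the precision.

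Values per array were given for circRNAs of glutamate and GABA receptor genes, of host genes with more than 1 circRNA, the 10 with the largest smaller difference of the 2, and the 3 with the smallest difference from each control. Some circRNAs enter the counts and medians of the set but are not reported here one by one. Host symbols are those of the tables, and all 41 matched RefSeq (GRCm38.p6) by transcript. The tables name no build, so no reference coordinates were used. Normexp, an alternative, used the spot's median signal because the files hold no mean signal. The alternatives also varied scaling, the filter, the arrays in the fit, the test, and blocks for slide, row and replicate number.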

Additional observations from a re-analysis of the deposited data

How the results depend on the processing

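The set's median differences of HuD RIP from both controls stayed above 0 under every alternative run, from 0.52 to 3.61 against WT RIP and from 0.31 to 4.37 (no scaling) against IgG RIP, while the number of circRNAs called moved widely. Normexp background correction with an offset of 50 gave the lowest medians (0.52 and 0.31), called 2 circRNAs above WT RIP (1.89% of all probes tested), 13 above IgG RIP (5.05%) and 2 above both (1.88%), turned the median of WT RIP minus IgG RIP to -0.20, and turned the difference from IgG RIP of Slc30a9 mmu_circRNA_38718 (-0.024), Epha7 (-0.23), Atp6v1h mmu_circRNA_018088 (-0.19), Cacng3 (-0.24), Slc6a11 (-0.0040) and Scn8a (-0.16). The cause was not tested. With only the 2 groups compared in the fit, 13 were called above WT RIP (7.92% of all probes) and 13 above both (7.39%). The slide as a block, which leaves out IgG RIP replicate 3, alone on its slide, called 16 above IgG RIP (11% of all probes) and 14 above both (8.24%). The row of the slide as a block called 3 and 2 (3.07% and 2.58% of all probes), with fewer arrays behind each difference, and turned the median of WT RIP minus IgG RIP to -0.93. The methods' t-test after Benjamini-Hochberg called 0 above WT RIP (0% of all probes), 8 above IgG RIP (5.69%) and 0 above both (0%); at over 1.5-fold and an unadjusted p under 0.05 it called 26, 39 and 25 (15.6%, 26% and 13.7%). At that threshold it, like limma (an alternative chosen after seeing the data), called 2 between WT RIP and IgG RIP (6.07% and, with limma, 6.43% of all probes). The authors' normalized values gave medians of 0.92 over the 28 circRNAs listed against WT RIP and 1.05 over the 36 listed against IgG RIP. Leaving out each array in turn, the calls ran from 10 to 39 against WT RIP (6.93% to 25% of all probes), 14 to 41 against IgG RIP (9.14% to 31%) and 8 to 39 against both (5.65% to 22.6%), lowest without HuD RIP replicate 3 and highest without HuD RIP replicate 2; WT RIP against IgG RIP stayed at 0, and its median ran from -0.33 (without WT RIP replicate 1) to 0.51. Calls above both numbered 9 (7.04%) when HuD RIP replicate 1 was left out, 38, 14 and 11 (19.1%, 8.25% and 7.61%) when WT RIP replicates 1, 2 and 3 were, and 17, 16 and 14 (8.51%, 8.6% and 8.24%) when IgG RIP replicates 1, 2 and 3 were. Of 1552 differences of single circRNAs recomputed, 1172 kept their direction and side of the threshold, 314 fell below it, 58 rose past it, 6 reversed and 2 others changed sign.

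The groups share replicate numbers, but same-numbered arrays did not deviate together throughout (correlation of deviations 0.648, 0.557 and -0.0992 for HuD RIP with WT RIP), so the numbers were not taken as pairs. With the replicate block 37 circRNAs were called above WT RIP (22.2% of all probes), 40 above IgG RIP (29.2%) and 37 above both (19.9%). Signal near background limits the dimmest circRNAs, whose control values are bounds.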
